A study of Rattus norvegicus with 36 samples.

Results

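The miR-26 family in the rat aorta was followed through its pair of mature guide strands, miR-26a-5p and miR-26b-5p. They were chosen as regulators of smooth muscle differentiation among the most abundant aortic microRNAs, with earlier results of these data known. They are 2 of the 835 microRNA names listed. Both passed the filter on low values and were tested. Small RNAs were sequenced from the aorta of male rats of 3 inbred strains on 2 diets, with 6 animals labelled in each of 6 groups. SS is the Dahl salt-sensitive strain, and all groups share its genetic background. S2Ba is a congenic SS strain that carries the distal portion of chromosome 2 from the Brown Norway (BN) strain, and S2Bb carries the middle segment of the same BN chromosome. From 4 to 6 weeks of age until 12 to 13 weeks, the rats were fed either normal salt (NSD) or high salt with 4% NaCl (HSD).

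A microRNA guides the Argonaute protein to messenger RNAs that pair with its seed, bases 2 to 8 from the 5′ end, and lowers their translation and stability. The miR-26 hairpins lie in genes of the small C-terminal domain phosphatase family, which act on RNA polymerase II, and are processed from the transcripts of these host genes. In cultured human smooth muscle cells, miR-26a has been reported to hold back the contractile, differentiated state and to target the BMP and TGF-beta signal transducers SMAD1 and SMAD4.

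The mature strands and the opposite strands of the same hairpins are shown because the results depend on telling near-identical reads apart. The sequences are RefSeq's, on the GRCr8 assembly, with the seed in capitals.
miR-26a-5p: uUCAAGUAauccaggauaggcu
miR-26b-5p: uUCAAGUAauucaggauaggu
miR-26a-3p: cCUAUUCUugguuacuugcac
miR-26b-3p: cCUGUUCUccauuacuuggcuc

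The guide strands share the seed UCAAGUA. From 1 at the 5′ end, with the base of miR-26a-5p first, they differ by C11U and C21U, and 19 of the 21 positions that can be compared are identical. miR-26a-5p has 22 bases and lies on the plus strand at chr8:127633063-127633084, and miR-26b-5p has 21 bases and lies on the plus strand at chr9:83425723-83425743. Of the 576 miRBase names listed, 518 could be matched to a RefSeq mature sequence, and 0 of these other than the guide strands themselves carried the miR-26 seed. The sequence most like miR-26a-5p among the other matched names was identical to it at 11 positions. The sources used here do not say how reads were shared between near-identical sequences, so the split between miR-26a-5p and miR-26b-5p is uncertain to that extent.

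The hairpins are shown to place the strands within them, with both mature strands in capitals.
Mir26a: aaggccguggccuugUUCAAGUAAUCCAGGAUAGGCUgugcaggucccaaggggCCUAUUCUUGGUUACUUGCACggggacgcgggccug
Mir26b: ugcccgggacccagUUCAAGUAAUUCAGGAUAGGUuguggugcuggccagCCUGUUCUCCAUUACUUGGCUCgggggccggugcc
Mir26a spans chr8:127633048-127633137, within the span of Ctdspl from 127520478 to 127644999 on the same strand. Mir26b spans chr9:83425709-83425793, within the span of Ctdsp1 from 83422755 to 83428411 on the same strand. Both host genes encode small phosphatases, and neither hairpin lies on chromosome 2, the chromosome that differs between the strains.

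Levels are in nRPM, the deposited normalized signal per M reads (M for mega), and whole reads were recovered from it. After removal of a pair of identical libraries, 5 libraries of SS, 5 of S2Ba and 6 of S2Bb were analysed on each diet, 32 in all. Their depth ran from 2.31 to 42.4 M reads, with a median of 19.4 M. SS HSD replicate 2 stood apart as the shallowest, with 31.7% of its reads in miR-143-3p against a median of 55.0%. Differences of the guide strands and of their ratio between groups that include it are given with and without it. Spreads within groups, and p-values that use them, also rest on it. Nothing in the labels describes litters, cages or preparation dates, so p-values measure the spread between these libraries. Animal numbers go with diet: NSD animals have lower numbers than HSD animals, except that S2Bb HSD replicates 2 and 3 have the lowest of all. An effect of number order and one of diet cannot be told apart in SS and S2Ba. The labelled tissue was checked by its smooth muscle microRNAs, of which miR-143-3p took 53.5% ± 5.64 of all reads (SD, n = 32).

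miR-26a-5p was among the most abundant microRNAs of the aorta, which was part of the reason for its choice. Its signal averaged 45989 ± 9827 nRPM (SD, n = 32) and ranged from 28511 to 65562 nRPM. By mean signal it ranked 4th, below miR-10b-5p at 88787 nRPM and miR-10a-5p at 74617 nRPM, and above miR-27b-3p at 40900 nRPM and miR-22-3p at 20422 nRPM. Its rank within single libraries lay between 3 and 7. miR-26b-5p was far less abundant, at 2694 ± 403 nRPM (SD, n = 32), with a range from 1113 to 3447 nRPM. It ranked 25th, between miR-24-3p at 3098 and miR-21-5p at 3043 nRPM above and miR-16-5p at 2443 and miR-145-3p at 2289 nRPM below, and its rank within libraries ran from 22 to 37.

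Each value rests on many reads. miR-26a-5p had from 90913 to 2302667 reads per library, and miR-26b-5p had from 3548 to 95396. In the shallowest library, miR-26a-5p took 3.93% of the reads (exact Clopper-Pearson 95% interval 3.90 to 3.95%) and miR-26b-5p took 0.153% (0.148 to 0.158%). These intervals cover counting error only. On the log2(nRPM + 1) scale, the SD within groups was 0.28 for miR-26a-5p and 0.26 for miR-26b-5p, against a median of 0.38 over the 484 microRNAs tested. Of the tested names, 22.1% had a smaller SD than miR-26a-5p and 14.5% a smaller one than miR-26b-5p, so both strands varied less within groups than most microRNAs tested. Most of those are scarcer, and names of similar abundance were not compared.

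**Figure D1:**
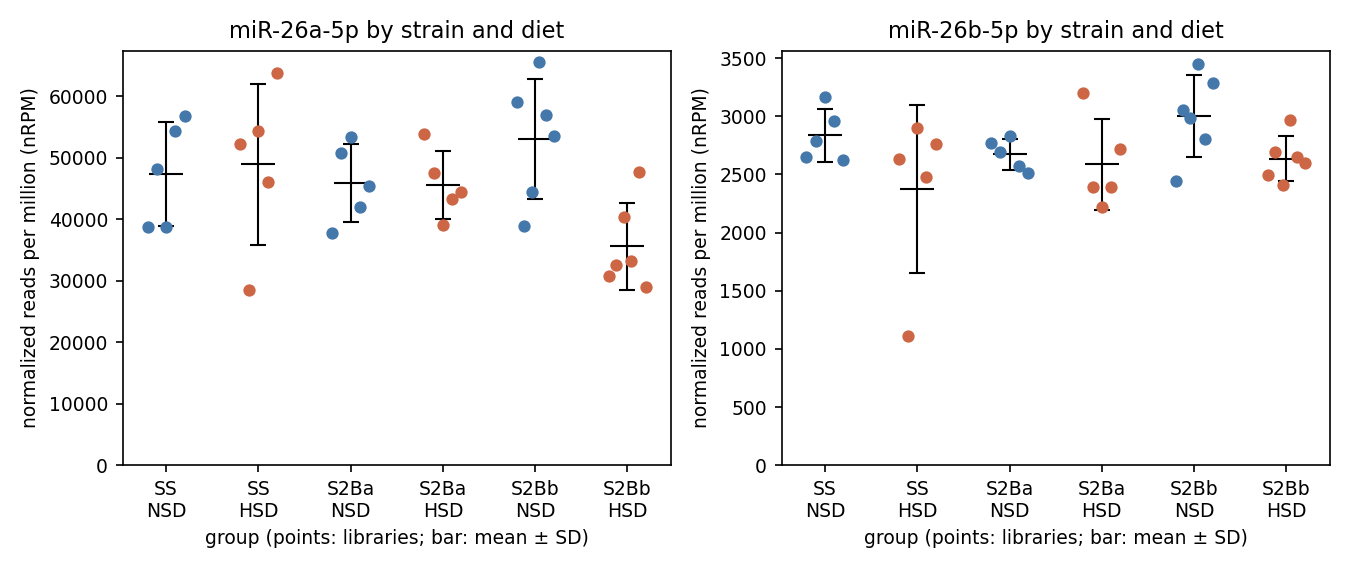
The signal of miR-26a-5p (left) and miR-26b-5p (right), in nRPM on linear axes that start at 0, is plotted for each of the 32 libraries as points, with the mean ± SD of each strain and diet group. S2Bb on HSD has the lowest mean of miR-26a-5p, at 35616 nRPM, and SS HSD replicate 2 is the single low point of miR-26b-5p, at 1113 nRPM.

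The opposite strands of the hairpins were scarce. miR-26a-3p had between 0 and 9 reads per library, at most 0.43 nRPM, and did not pass the filter of at least 1 nRPM in at least 5 libraries. miR-26b-3p was detected in every library, with 44 to 346 reads and 6.73 to 13.8 nRPM. For each miR-26b-3p read there were on average 306 ± 72.8 reads of miR-26b-5p (SD, n = 32), so the guide strand made up nearly all of the reads from this hairpin. In SS HSD replicate 2 this ratio was 80.6, the lowest of all libraries. miR-26b-3p was not called in any comparison. Its diet difference was 0.33 ± 0.17 in SS (adjusted p = 0.282, limma) and 0.10 ± 0.15 in S2Bb (adjusted p = 0.825, limma). The difference in SS is not given without SS HSD replicate 2, which holds the highest signal, 13.8 nRPM.

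miR-26a-5p was lower on high salt than on normal salt in the aorta of S2Bb rats. On NSD the 6 S2Bb libraries held from 38959 to 65562 nRPM, with a median of 55286, and on HSD from 29040 to 47709 nRPM, with a median of 32909. The groups overlapped: 4 of the 6 HSD libraries lay below every NSD library, while HSD replicate 5, at 47709 nRPM, and replicate 3, at 40405 nRPM, lay among the lower NSD values. The mean was 53095 ± 9803 nRPM on NSD and 35616 ± 7089 nRPM on HSD (SD, n = 6 each), which is a ratio of 0.671. On the log2(nRPM + 1) scale the difference was -0.58 ± 0.16 (SE), with a 95% confidence interval from -0.91 to -0.25 and an adjusted p of 0.0304. This p comes from limma fitted over all tested microRNAs, with Benjamini-Hochberg adjustment, and a microRNA is called where it is under 0.05. Without SS HSD replicate 2, which is in neither group but enters the shared estimate of spread, the adjusted p was 0.00655 (limma). In this comparison 29 of 484 names were called (5.99%), 17 of them lower (3.51%) and 12 higher (2.48%), and miR-26a-5p was 1 of the 17. The S2Bb HSD animals with the lowest numbers, replicates 2 and 3, had 32546 and 40405 nRPM, the first below and the second within the NSD range. The part of number order in the difference was not tested.

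The size of that difference depended on how libraries were scaled. As a share of all reads, miR-26a-5p took 4.93% ± 1.17 on NSD and 3.56% ± 0.501 on HSD, and as a share of the reads other than miR-143-3p it took 11.1% ± 2.02 and 8.19% ± 1.20 (SD, n = 6 each). The limma difference was -0.45 with an adjusted p of 0.148 on the first of these scalings, and -0.43 with an adjusted p of 0.127 on the second. Those scalings also moved the median difference of all tested microRNAs, from 0.03 to 0.13 and to 0.14. The call was likewise lost without a filter on low values (adjusted p = 0.0529), with runs of neighbouring animal numbers as a random block (adjusted p = 0.150), and when any of S2Bb NSD replicates 1, 4 or 5 or HSD replicates 1, 2, 4 or 6 was left out (adjusted p from 0.0589 to 0.0777). The difference stayed negative in each of these fits. With median-of-ratios size factors the difference was -0.62 and the call was kept (adjusted p = 0.0149, limma). With count tests on recovered reads the adjusted p was 0.0139 in edgeR and 0.00265 in DESeq2. In limma-voom with sample weights it was 0.00118.

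**Figure D2:**
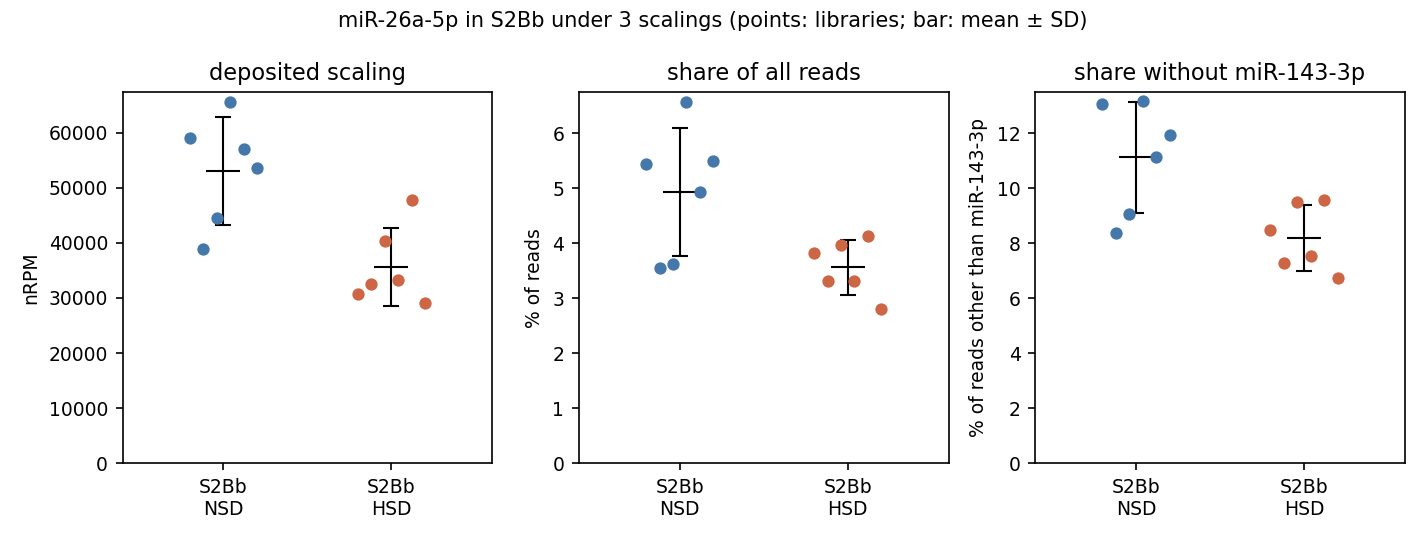
miR-26a-5p in S2Bb is plotted per library (points) with the mean ± SD of each diet, as the deposited signal in nRPM (left), as percent of all reads (middle) and as percent of the reads other than miR-143-3p (right). The HSD mean is lower in each panel, and the libraries of the diets overlap in each panel.

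miR-26b-5p was not called in S2Bb. It held from 2445 to 3447 nRPM on NSD, with a median of 3016, and from 2411 to 2967 nRPM on HSD, with a median of 2623. The NSD group reached higher, with 4 of its 6 libraries above every HSD library, but the lowest values of the groups were nearly the same. The means were 3003 ± 355 and 2636 ± 192 nRPM (SD, n = 6 each), a difference of -0.18 ± 0.15 with an interval from -0.49 to 0.13 (adjusted p = 0.619, limma). Because miR-26a-5p is so much more abundant, the sum of both guide strands followed it, from 56097 ± 9831 to 38252 ± 7064 nRPM (SD, n = 6 each).

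Markers of cell types were examined beside the lower miR-26a-5p, since in bulk tissue fewer cells of a type and less RNA per cell cannot be told apart. The smooth muscle markers miR-143 and miR-145, 4 of 4 detected, summed to 509219 to 742576 nRPM on NSD and 446257 to 662103 nRPM on HSD in S2Bb. This sum is nearly all miR-143-3p, which averaged 612339 and 565246 nRPM, against 619306 and 570851 nRPM for the sum. The others did not move alike: miR-145-5p averaged 4599 and 2879 nRPM, miR-145-3p 2302 and 2669 nRPM, and miR-143-5p 65.1 and 56.5 nRPM. The endothelial markers, both strands of miR-126a and both detected, summed to 1738 ± 474 nRPM on NSD and 2726 ± 377 nRPM on HSD (SD, n = 6 each), and the groups overlapped between 2237 and 2691 nRPM. Their part in the result was not tested.

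Markers of other tissues were below the summed smooth muscle markers in every S2Bb library. Liver markers, 3 of 3 detected, averaged 611 and 404 nRPM on NSD and HSD. Striated muscle markers averaged 632 and 629 nRPM, with miR-206-3p at 0 in every S2Bb NSD library. That sum is nearly all miR-133a-3p, at 598 and 608 nRPM, which is also on the smooth muscle list below, while miR-1-3p averaged 0.51 and 0.73 nRPM. Fat markers averaged 1427 and 1439 nRPM, in the range of the endothelial markers on NSD. White cell markers averaged 122 and 129 nRPM with 4 of 5 listed, red cell markers 18.2 and 5.54 nRPM with 3 of 4 listed, epithelial markers 34.04 and 35.2 nRPM, and neural markers 33.7 and 58.7 nRPM. Depth averaged 27.2 M reads on NSD and 20.1 M on HSD. The part of these values in the result was not tested.

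In SS, miR-26a-5p did not differ detectably between diets. The NSD libraries held 38749, 48157, 38750, 54379 and 56879 nRPM, and the HSD libraries held 52245, 28511, 54289, 46048 and 63811 nRPM. The HSD group contained both the lowest and the highest of the 10 values. The difference was 0.02 ± 0.18, with an interval from -0.35 to 0.38 (adjusted p = 0.984, limma), and 0.20 without SS HSD replicate 2. Of all tested names, 1.03% were called for diet in SS, neither guide strand among them.

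miR-26b-5p in SS held 2654, 2788, 3166, 2960 and 2621 nRPM on NSD, and 2629, 1113, 2901, 2481 and 2761 nRPM on HSD. A single library, SS HSD replicate 2, lay far under the other 4, which ran from 2481 to 2901 nRPM. The difference was -0.33 ± 0.17 (adjusted p = 0.282, limma) with that library and -0.07 (adjusted p = 0.779, limma) without it.

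In S2Ba the guide strands hardly differed between diets. miR-26a-5p held 37823, 50844, 53395, 41986 and 45373 nRPM on NSD, and 53876, 47516, 39078, 43295 and 44366 nRPM on HSD. These groups covered nearly the same range, and the difference was -0.01 ± 0.18, with an interval from -0.37 to 0.36 (adjusted p = 1.0, limma). miR-26b-5p held 2767, 2691, 2830, 2574 and 2509 nRPM on NSD, and 3203, 2394, 2224, 2391 and 2716 nRPM on HSD. Its HSD libraries spread more widely, 3 below and 1 above all NSD libraries, and the difference was -0.06 ± 0.17 (adjusted p = 0.962, limma). For diet in S2Ba 0.826% of the tested names were called, neither guide strand among them.

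Averaged over the strains with equal weight, the diet difference was -0.19 ± 0.10 for miR-26a-5p (adjusted p = 0.212, limma) and -0.19 ± 0.09 for miR-26b-5p (adjusted p = 0.183, limma). Neither was called, while 13.4% of the tested names were. Without SS HSD replicate 2 these differences were -0.13 and -0.11.

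Whether the strains responded differently to salt was tested as a difference of diet differences. For miR-26a-5p the response of S2Bb was lower than that of SS by 0.59 ± 0.24 on the log2 scale, that is -0.59 with an interval from -1.09 to -0.10 (unadjusted p = 0.0195, adjusted p = 0.487, limma). Against S2Ba it was -0.57 ± 0.24, with an interval from -1.06 to -0.08 (unadjusted p = 0.0242, adjusted p = 0.918, limma). These share the S2Bb libraries and neither was called, so a fall particular to S2Bb was not shown. Without SS HSD replicate 2 the first of them was -0.78 (adjusted p = 0.1002, limma), and with sample weights in limma-voom on recovered reads it was -0.84 and was called (adjusted p = 0.0364). For miR-26b-5p the differences of response were 0.15 ± 0.23 against SS (adjusted p = 0.831, limma) and -0.12 ± 0.23 against S2Ba (adjusted p = 0.954, limma). Between S2Ba and SS they were -0.02 ± 0.25 for miR-26a-5p and 0.27 ± 0.24 for miR-26b-5p (adjusted p = 0.972 and 0.822, limma). Without SS HSD replicate 2, the response of miR-26b-5p turned to -0.11 for S2Bb against SS, and for S2Ba against SS the values were 0.0146 for miR-26b-5p and -0.21 for miR-26a-5p, none of them called. Of the tested names, 0.413% were called for S2Bb against SS and 0 for the other differences of response. For those, 20 names had an unadjusted p under 0.05 for S2Bb against S2Ba and 36 for S2Ba against SS, edgeR called 0 in each, and DESeq2 called 1 and 3.

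**Figure D3:**
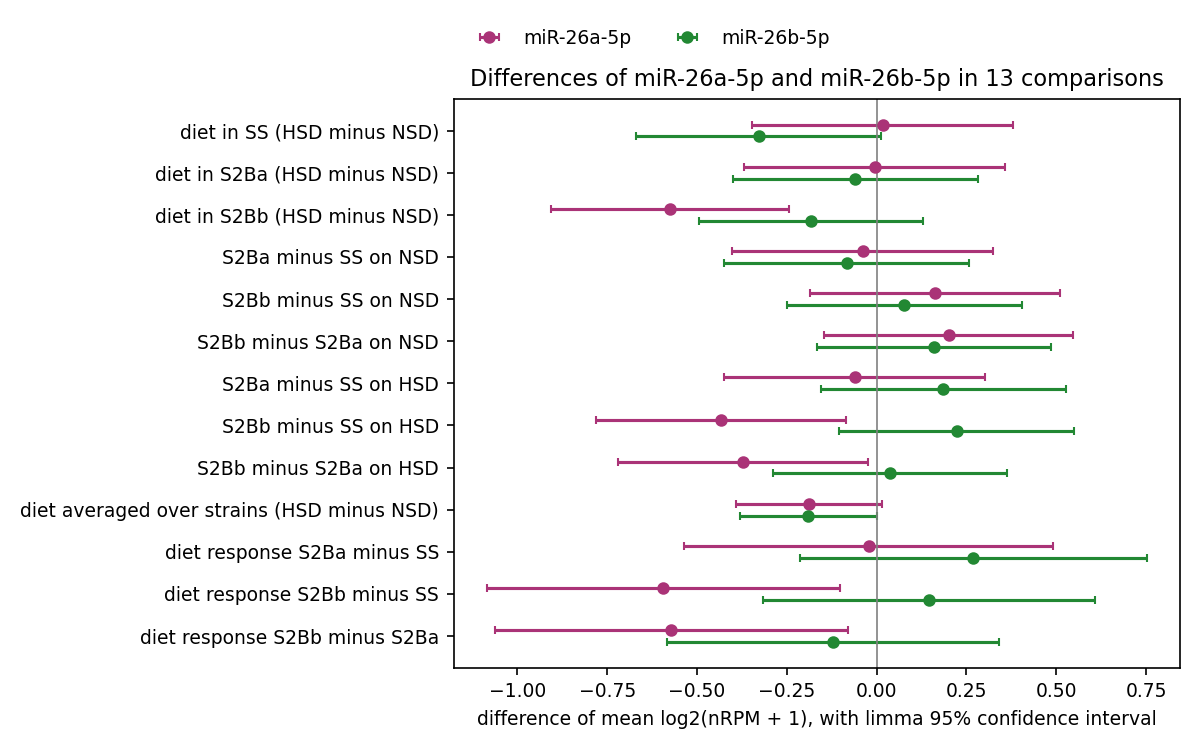
Differences of mean log2(nRPM + 1) between groups are plotted for miR-26a-5p and miR-26b-5p in each of the 13 comparisons, with limma's 95% confidence intervals, not adjusted for multiple tests. The interval of miR-26a-5p for diet in S2Bb, from -0.91 to -0.25, lies farthest below 0 among the comparisons of 2 groups.

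On normal salt the strains did not differ detectably in either guide strand. miR-26a-5p averaged 47383 ± 8497 nRPM in SS (SD, n = 5), 45884 ± 6353 in S2Ba (n = 5) and 53095 ± 9803 in S2Bb (n = 6). Its differences were -0.04 ± 0.18 for S2Ba minus SS, 0.16 ± 0.17 for S2Bb minus SS and 0.20 ± 0.17 for S2Bb minus S2Ba, with adjusted p from limma of 0.947, 0.737 and 0.636. miR-26b-5p averaged 2838 ± 227, 2675 ± 133 and 3003 ± 355 nRPM in the same strains, with differences of -0.08, 0.08 and 0.16 (adjusted p = 0.858, 0.879 and 0.683, limma). Of the tested names 0.413%, 0.826% and 3.51% were called in these comparisons.

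On high salt S2Bb had the lowest mean of miR-26a-5p, at 35616 ± 7089 nRPM (SD, n = 6) against 48981 ± 13099 in SS and 45626 ± 5512 in S2Ba (SD, n = 5 each). The difference of S2Bb minus SS was -0.43 ± 0.17, with an interval from -0.78 to -0.08 (unadjusted p = 0.0164, adjusted p = 0.2997, limma), and without SS HSD replicate 2 it was -0.62 (adjusted p = 0.0835, limma). The difference of S2Bb minus S2Ba was -0.37 ± 0.17, with an interval from -0.72 to -0.02 (unadjusted p = 0.0372, adjusted p = 0.474, limma). Neither was called. In these comparisons limma called 0 of the tested names, with 56 and 44 at an unadjusted p under 0.05, edgeR called 0 in each, and DESeq2 called 0 and 7. With limma-voom and sample weights, S2Bb minus SS was -0.62 and was called (adjusted p = 0.0124).

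miR-26b-5p on high salt averaged 2377 ± 724 nRPM in SS, 2586 ± 389 in S2Ba and 2636 ± 192 in S2Bb. Its differences were 0.19 for S2Ba minus SS, 0.22 for S2Bb minus SS and 0.04 for S2Bb minus S2Ba (adjusted p = 0.621, 0.504 and 0.970, limma). Both differences against SS turned negative without SS HSD replicate 2, to -0.07 and -0.03. S2Ba minus SS was -0.06 for miR-26a-5p (adjusted p = 0.916, limma), or -0.24 without that library (adjusted p = 0.607, limma), and 0.207% of the tested names were called in that comparison.

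Set in order of mean, miR-26a-5p ran from S2Bb on NSD through SS on HSD, SS on NSD, S2Ba on NSD and S2Ba on HSD to S2Bb on HSD. Neighbouring groups among the first 5 differed by less than 1 SD of either group, and the last step, from 45626 to 35616 nRPM, was larger than the SD of either group but was not called. For miR-26b-5p the order was S2Bb, SS and S2Ba on NSD, then S2Bb, S2Ba and SS on HSD, and each step was within 1 SD of at least one of the neighbouring groups.

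The ratio of the guide strands within a library does not depend on how libraries were scaled. There were 16.8 ± 3.62 miR-26a-5p reads per miR-26b-5p read in SS on NSD and 21.2 ± 3.09 on HSD, 17.2 ± 2.22 and 17.7 ± 1.36 in S2Ba, and 17.9 ± 4.10 and 13.6 ± 3.01 in S2Bb (SD, n = 5, 5 and 6 on each diet). On HSD the SS libraries held ratios of 19.9, 25.6, 18.7, 18.6 and 23.1, and the S2Bb libraries ran from 11.2 to 18.03 with a median of 12.2. These groups did not overlap. The mean log2 ratio of S2Bb was lower than that of SS by 0.66, a difference of -0.66 with the smallest p that an exact two-sided permutation test of 5 against 6 libraries can give (0.00433, Benjamini-Hochberg adjusted p = 0.0390 over 18 ratio tests). The difference was -0.58 without SS HSD replicate 2. With any of these 11 libraries left out the adjusted p ran from 0.0714 to 0.0779, in designs whose smallest possible p is 0.00794 or 0.00952. So few of the 18 ratio tests reached such a p that these designs could not pass the threshold. That loss therefore does not measure the weight of single libraries.

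The other comparisons of this ratio did not pass the adjusted threshold. The diet difference of its mean log2 was -0.39 in S2Bb (exact permutation p = 0.0584, adjusted p = 0.150), 0.35 in SS (exact permutation p = 0.0794, adjusted p = 0.179) and 0.05 in S2Ba (exact permutation p = 0.643, adjusted p = 0.779). On HSD it was -0.25 for S2Ba minus SS and -0.41 for S2Bb minus S2Ba (exact permutation adjusted p = 0.119 each). Without SS HSD replicate 2, the diet difference in SS was 0.27 and S2Ba minus SS on HSD was -0.18. The 3 strain differences on NSD lay between 0.04 and 0.09.

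miR-26a-5p was also set against miR-143-3p, the most abundant microRNA of these libraries and a marker of differentiated smooth muscle. Per 100 miR-143-3p reads there were 8.28 ± 2.46 miR-26a-5p reads in SS on NSD and 10.3 ± 2.24 on HSD, 9.43 ± 1.89 and 9.13 ± 3.07 in S2Ba, and 8.93 ± 2.63 and 6.31 ± 0.897 in S2Bb (SD). On HSD the SS libraries held 12.2, 12.4, 8.70, 7.29 and 10.9, and the S2Bb libraries from 4.82 to 7.27 with a median of 6.43. The groups did not overlap, though the lowest SS value and the highest S2Bb value nearly met. The difference of mean log2 ratio was -0.69 (exact permutation p = 0.00433, the smallest possible, adjusted p = 0.0390), and -0.62 without SS HSD replicate 2 (adjusted p = 0.0779). This ratio shares its miR-26a-5p values and its libraries with the ratio to miR-26b-5p. Each adjusted p is under 0.05 only because both tests are at the smallest p, so they are not separate results. S2Bb minus S2Ba on HSD was -0.49 (exact permutation p = 0.0130, adjusted p = 0.0779), and the diet difference in S2Bb was -0.46 (exact permutation p = 0.0390, adjusted p = 0.119).

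**Figure D4:**
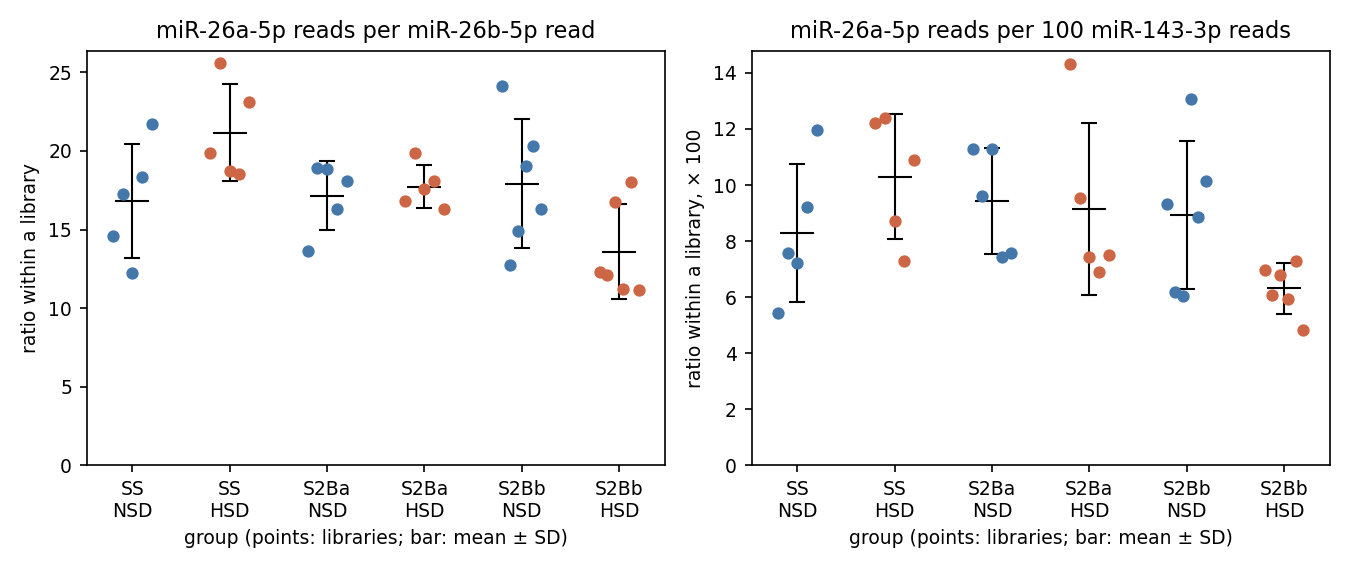
miR-26a-5p reads per miR-26b-5p read (left) and per 100 miR-143-3p reads (right) are plotted for each library as points, with the mean ± SD of each group, on linear axes from 0. On HSD the S2Bb libraries lie below all SS libraries in both panels, at 11.2 to 18.03 against 18.6 to 25.6 on the left.

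The guide strands moved together only loosely. Over the 32 libraries their log2 signals had a Pearson r of 0.456 (permutation p = 0.00508, adjusted p = 0.0152 over 3 relations) and a Spearman rho of 0.323 (permutation p = 0.0730, adjusted p = 0.164). Without the 2 libraries farthest from the median of miR-26a-5p, r was 0.272. Without SS HSD replicate 2 alone, r was 0.284 (permutation p = 0.122) and rho 0.256, so the relation rests on that library. Deviations from group means gave r = 0.542 (permutation p = 0.0495, adjusted p = 0.0743) and rho = 0.277 (permutation p = 0.138, adjusted p = 0.164). Their r was 0.285 without the 2 farthest libraries, SS HSD replicate 2 and S2Bb NSD replicate 2.

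The microRNAs whose log2 signal was most like each guide strand were sought among 153 miRBase names with a mean of at least 10 nRPM. For miR-26a-5p they were miR-195-5p (r = 0.537), miR-28-5p (r = 0.520), miR-30c-5p (r = 0.486), miR-26b-5p (r = 0.456) and miR-455-5p (r = 0.449), over 32 libraries, within each of which the names share depth and scaling. Of these only miR-30c-5p stayed among the first 5 without the shallowest library. miR-455-5p, a scarce strand at 18.3 nRPM on average, was also lower on HSD in S2Bb (-0.59 ± 0.17, adjusted p = 0.0296, limma), whereas miR-195-5p differed by 0.10 ± 0.27 (adjusted p = 0.897, limma).

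For miR-26b-5p the most alike were let-7f-5p (r = 0.714), miR-542-3p (r = 0.708), miR-101a-3p (r = 0.707), miR-199a-3p (r = 0.702) and miR-101b-3p (r = 0.688). Without the shallowest library these fell to between 0.331 and 0.415, and 0 of them stayed among the first 5. miR-26a-5p itself was 15th in likeness to miR-26b-5p, and 27th without that library.

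Beside the miR-26 family, a list of 16 microRNAs known from the phenotype of vascular smooth muscle was examined. It holds the contractile miR-143 and miR-145 strands, miR-1 and miR-133a, the growth-linked miR-21, miR-24, miR-31a, miR-146a, miR-221 and miR-222, and miR-10a, miR-100, miR-125b and miR-204. Of these, 15 were tested, and miR-1-3p did not pass the filter. The 4 most abundant were miR-143-3p at 551217 nRPM, miR-10a-5p at 74617 nRPM, miR-125b-5p at 13112 nRPM and miR-100-5p at 10860 nRPM. On HSD in S2Bb, 3 of the 15 were called lower and 0 higher, where 3.51% and 2.48% of all 484 tested names were. A further 4 list members passed an unadjusted p under 0.05 alone, 2 lower and 2 higher. The list's median difference was -0.20 against 0.03 over all tested names.

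The 3 that fell with miR-26a-5p in S2Bb differ in what is known of them. miR-145-5p, which promotes the contractile state, went from 4599 ± 809 to 2879 ± 583 nRPM (SD, n = 6 each), a difference of -0.69 ± 0.20 (adjusted p = 0.0379, limma). Its libraries did not overlap, with 3783 to 5930 nRPM on NSD and 1899 to 3437 on HSD. The other strand of its hairpin, miR-145-3p, did not fall. It went from 2302 ± 380 to 2669 ± 538 nRPM, a difference of 0.20 ± 0.22 (adjusted p = 0.727, limma). miR-10a-5p, which lies in a Hox gene cluster, went from 93180 ± 14887 to 67553 ± 13859 nRPM, a difference of -0.48 ± 0.14 (adjusted p = 0.0382, limma), and its libraries overlapped. miR-204-5p, which lies in an intron of a Trpm channel gene, went from 439 ± 73.4 to 207 ± 34.8 nRPM without overlap, a difference of -1.08 ± 0.19 (adjusted p = 0.00116, limma). The share of all tested names without overlap between these groups is not given here, so a lack of overlap is only a description.

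miR-204-5p was called lower under each of the 46 other settings. With total scaling, with the scaling without miR-143-3p, without a filter and with runs of animal numbers as a block, the number of list members called lower dropped to 1. It also dropped to 1 when S2Bb HSD replicate 2 alone was left out, and to 2 without any 1 of 8 other S2Bb libraries, while it was 4 without SS HSD replicate 2. miR-143-3p, which shares a gene cluster with miR-145, differed by -0.11 ± 0.19 (adjusted p = 0.825, limma). miR-146a-5p differed by 0.51 ± 0.24 (adjusted p = 0.274, limma) and miR-21-5p by 0.41 ± 0.22 (adjusted p = 0.360, limma).

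In SS and in S2Ba, limma called 0 of the 15 for diet, with 2 at an unadjusted p under 0.05 in each, and edgeR and DESeq2 called 0 as well. Over all tested names the shares called were 1.03% and 0.826%. The list's median was 0.17 in SS and 0.07 in S2Ba, against -0.02 and 0.01 over all tested names. In SS it was 0.08 without SS HSD replicate 2. On NSD, S2Bb was higher than S2Ba in 4 of the 15 and lower in 1, the called strands being miR-100-5p, miR-143-5p, miR-146a-5p, miR-204-5p and miR-221-3p, where 3.51% of all tested names were called in either direction. Without SS HSD replicate 2 these counts were 6 and 1. These values describe the list, and its members were chosen with earlier results of these data known.

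**Figure D5:**
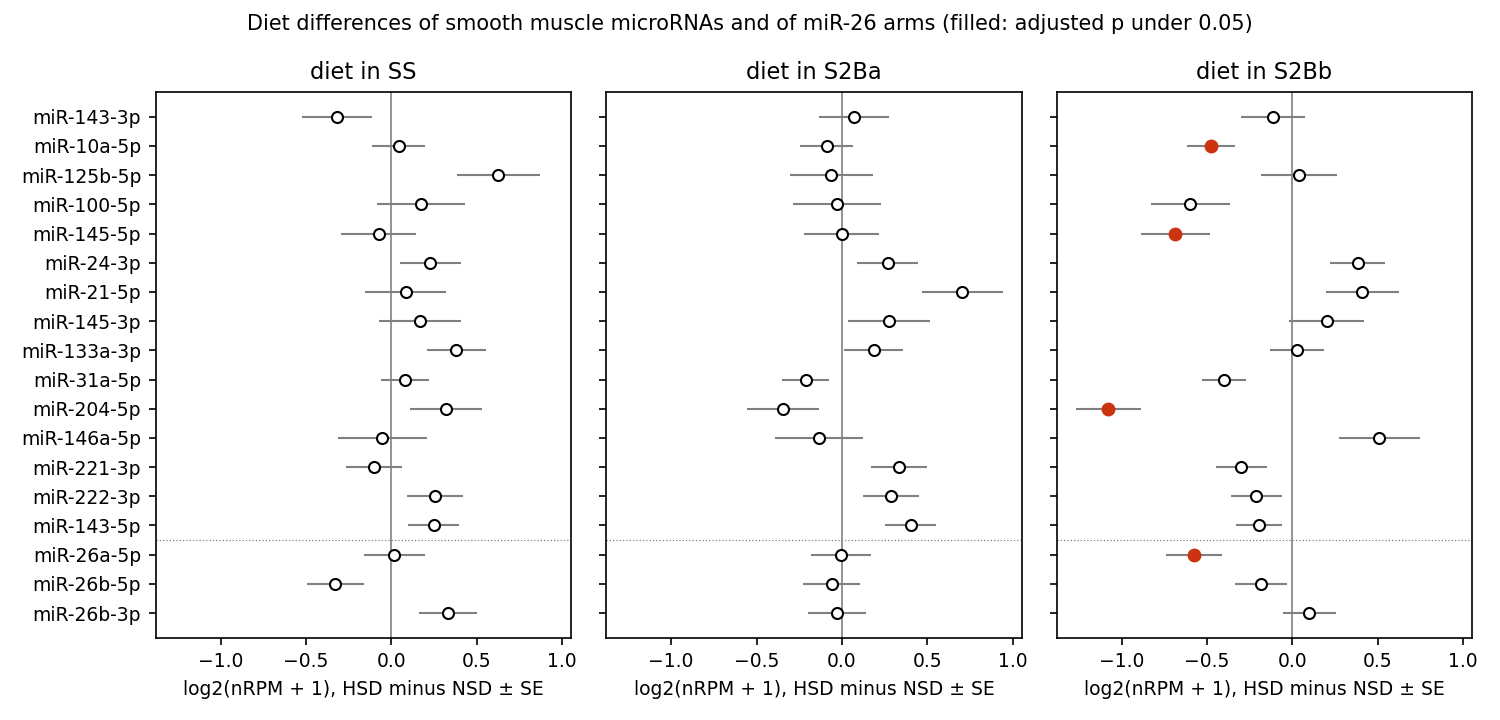
Diet differences of log2(nRPM + 1), HSD minus NSD, are plotted with their SE for the 15 tested members of the smooth muscle list and, below the dotted line, 3 strands of the miR-26 hairpins, in SS, S2Ba and S2Bb. Filled points mark an adjusted p under 0.05: miR-10a-5p, miR-145-5p, miR-204-5p and miR-26a-5p in S2Bb, and no point in SS or S2Ba.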

How the data were processed

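Per the labels, total RNA of the aorta went into small RNA libraries, with RNA of an integrity number of at least 8. The tools named, per the submitters' processing notes, are edgeR 3.6.8, R 3.2.3, STAR 2.3.1, FastQC and bcl2fastq 1.8.4. The way the values were normalized, like the build and annotation, was not given in the sources used here. A normalized signal per microRNA and library was deposited by the authors, in 34 columns for the 36 labelled samples. Every column had a step of which 100% of its values were multiples (tolerance 1e-06), and division by that step gave whole reads. The columns summed to 0.726 to 1.30 M. SS HSD replicate 3 and S2Ba HSD replicate 2 were not analysed here. SS NSD replicate 1 and S2Ba NSD replicate 4 held identical values for 100% of the names, so both were left out.

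The filter kept names that reached 1 nRPM in 5 or more libraries (484: 275 with a miRBase name and 209 named miR-n). A linear model with an intensity trend (limma 3.58.1, R 4.3.3) was fitted to log2(nRPM + 1) over all 6 groups, with Benjamini-Hochberg adjustment over the 484. That scale understates changes of rare microRNAs. The table holds normalized values, so limma took the place of a count test, and edgeR 4.0.16 and DESeq2 1.42.0 on recovered reads are alternatives. The fit was tested on simulated data. Ratios within libraries were compared by exact two-sided permutation tests (scipy 1.17.1), and correlations with 100000 permutations. The microRNAs named are the guide strands, their opposite strands, their neighbours by rank, the 5 names most alike, and the abundant or called members of the smooth muscle list. The family, the lists and the tests were chosen with earlier results of these data known. Alternatives covered scaling, pseudocount, filter, names, model, samples in the fit, 19 runs of neighbouring animal numbers (within a group, at most 2 apart) as a random block, the identical library under either label, and each library left out.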

Additional observations from a re-analysis of the deposited data

Results flagged for a closer look

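miR-26b-5p in SS HSD replicate 2 was 1113 nRPM, far from the other 4 libraries of its group, which held 2481 to 2901 nRPM. It was the only one of 30 sets of values examined (5 quantities in 6 groups) in which the lowest or highest library stood apart by Dixon's criterion, which chance meets in about 1 in 20 groups. The same library is the shallowest, with 2.31 M reads, and had 3548 reads of miR-26b-5p. Differences of the guide strands and of their ratio that include it are given above with and without it.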

How the results depend on the processing

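No paired analysis was possible because each animal number occurs in a single group and the labels give no pairing between groups. Over 44 differences of the guide strands and of their ratios, 1715 recomputed values kept their direction and their side of the threshold, 58 changed sign, 33 lost a call and 2 gained one. The lower miR-26a-5p in S2Bb on HSD was -0.45 with reads scaled to the total (adjusted p = 0.148), -0.43 with that total without miR-143-3p (0.127), -0.58 with no filter on low values (0.0529) and -0.59 with runs of animal numbers as a random block (0.150). With median-of-ratios size factors it was -0.62 and kept the call (adjusted p = 0.0149, limma). It ran from -0.67 to -0.51 with single libraries left out, and 7 of those 32 fits lost the call. All 7 left out an S2Bb library, of which there were 6 on each diet. Leaving out an SS or S2Ba library could not move the difference itself, which stayed at -0.58. Calls were gained with limma-voom and sample weights for miR-26a-5p in S2Bb minus SS on HSD (-0.62) and in the difference of their responses (-0.84). The ratios of miR-26a-5p to miR-26b-5p and to miR-143-3p in S2Bb minus SS on HSD ran from -0.74 to -0.58 and from -0.81 to -0.62 with single libraries left out. The smaller designs, with so few ratio tests at their smallest p, could not reach the threshold. The causes of the lost calls of miR-26a-5p for diet in S2Bb were not tested.

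The values that changed sign were uncalled under each setting. For miR-26a-5p they were diet in SS with median-of-ratios factors (-0.0185) and with runs as a block (-0.0251); diet in S2Ba with the total without miR-143-3p (0.0698) and with the identical column taken for S2Ba (0.0508); S2Ba minus SS on NSD with total scaling (0.177), the total without miR-143-3p (0.145), edgeR (0.0337), limma-voom (0.0608) and the identical column taken for SS (0.0237); S2Ba minus SS on HSD with the total without miR-143-3p (0.0803) and with runs as a block (0.00229); and the response of S2Ba minus SS with runs as a block (0.0118) and with the identical column taken for S2Ba (0.0333). For miR-26b-5p they were diet in S2Ba (0.0154) and S2Ba minus SS on NSD (0.101) with the total without miR-143-3p, S2Ba minus SS on NSD (0.132), S2Bb minus S2Ba on NSD (-0.0237) and on HSD (-0.0150) and the response of S2Bb minus S2Ba (0.00875) with total scaling, and S2Ba minus SS on HSD (-0.0230) and the response of S2Bb minus SS (-0.0582) with limma-voom. The ratio of the guide strands in S2Ba minus SS on NSD was -0.00307 with the identical column taken for S2Ba.

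With single libraries left out, miR-26a-5p ran from -0.0903 to 0.20 for diet in SS, -0.0720 to 0.0523 for diet in S2Ba, -0.106 to 0.0320 and -0.244 to 0.0465 for S2Ba minus SS on NSD and HSD, and -0.205 to 0.0851 for their response. miR-26b-5p ran on HSD from -0.0686 to 0.277 for S2Ba minus SS, -0.0318 to 0.314 for S2Bb minus SS and -0.0144 to 0.117 for S2Bb minus S2Ba, and from -0.108 to 0.237 for the response of S2Bb minus SS. The ratio of the guide strands ran on NSD from -0.0636 to 0.143 for S2Ba minus SS, -0.0232 to 0.183 for S2Bb minus SS and -0.0520 to 0.132 for S2Bb minus S2Ba, and from -0.0251 to 0.0916 for diet in S2Ba. The ratio to miR-143-3p ran from -0.0335 to 0.251 for S2Bb minus SS on NSD and from -0.255 to 0.00889 for diet in S2Ba. Over all tested microRNAs, calls for diet in S2Bb numbered 29, against 8 with runs as a block and 63 with limma-voom, and on recovered reads 35 with edgeR and 41 with DESeq2; calls numbered 0 to 13 in SS and 0 to 25 in S2Ba across settings. Total scaling moved the median of all tested names by 0.14 for diet in SS, 0.17 for S2Ba minus SS on NSD and -0.15 for S2Bb minus S2Ba on NSD.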
